A study of Homo sapiens with 10 samples.

Results

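RPL22 and RPL22L1 encode alternative forms of the same ribosomal protein, and their RNA was followed in 10 RNA-sequencing libraries of SH-SY5Y cells, a human neuroblastoma line of noradrenergic character. The pair was taken by symbol, as the 2 rows named RPL22 and RPL22L1 among 58174 genes in the deposited table. Of the libraries, 3 came from cells given an siRNA pool against TDP-43 (siTDP-43) and 3 from cells given a control siRNA pool (siControl), each at 50 nM for 96 hours with a second dose at 24 hours. A further 2 libraries came from cells homozygous for the TDP-43 substitution N352S and 2 from TDP-43 wild-type cells of the same genome-editing experiment. No siRNA is named for the edited cells beyond a protocol shared by all labels, and whether a genotype is 1 clone or several is not given in the sources used here. The series' design text calls the libraries biological replicates without naming separate cultures, so SDs and p-values cover only how these libraries vary, which may be technical.

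RPL22 is a component of the large (60S) subunit of cytosolic ribosomes, placed on its outer surface near the exit of the nascent chain, and ribosomes can be made without it. RPL22L1 is its paralogue and can take its place in the subunit. In mouse cells, RPL22 protein binds the Rpl22l1 transcript and holds its level down, so that loss of Rpl22 raises Rpl22l1. In human cells both proteins have been linked to splicing, including that of the p53 inhibitor MDM4, and RPL22 is often lost in tumours. These statements are background from other systems and were not measured in the 10 libraries.

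RPL22 (ENSG00000116251) lies on the short arm of chromosome 1, at 6185020 to 6209389 on the minus strand, and RPL22L1 (ENSG00000163584) on the long arm of chromosome 3, at 170864875 to 170870483 on the minus strand (hg38 coordinates, GENCODE release 29). The coding sequences of their main transcripts are 387 and 369 bases long and match at 68.6% of 369 aligned positions. The predicted proteins have 128 residues for RPL22 and 122 for RPL22L1, and match at 73.8% of 122 aligned residues. The longest identical stretch of the coding sequences is 17 bases. It is printed here in capitals, with 6 flanking bases on each side, because reads of the pair can only be confused where the sequences match.
RPL22: ttctccAAAAGGTATTTGAAATAtctcac
RPL22L1: ttctctAAAAGGTATTTGAAATAccttac
It covers bases 238 to 254 of the RPL22 and 220 to 236 of the RPL22L1 coding sequence. No 31-base word is shared between the 7 annotated transcripts of RPL22 and the 6 of RPL22L1. The 7 rows of processed copies named RPL22P reached at most 0.81 TPM in a library, and 3 of them were listed at 0 in all 10. RNF207, which overlaps RPL22 on the opposite strand, had 4.59 to 12.6 TPM, and AL031847.1, which overlaps it on the same strand, had 0.59 to 5.08 TPM. AL031847.2, annotated as protein-coding and also on the same strand, had no row in the deposited table, so it has no TPM.

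The annotated RefSeq start site of each gene lies in a run of pyrimidines. Such runs are known from mRNAs whose translation is controlled together with that of the ribosome. The start sites in use, and translation, were not measured here. The windows below run from 100 bases before to 30 bases from the RefSeq start site onward (GRCh38.p14, minus strand), at chr1:6199566-6199695 and chr3:170870166-170870295. Capitals mark the run of C or T at the start site and, in RPL22L1, the match to TATAAA.
RPL22: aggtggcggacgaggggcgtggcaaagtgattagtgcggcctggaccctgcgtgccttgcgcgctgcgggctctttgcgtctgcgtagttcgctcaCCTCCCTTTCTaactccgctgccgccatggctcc
RPL22L1: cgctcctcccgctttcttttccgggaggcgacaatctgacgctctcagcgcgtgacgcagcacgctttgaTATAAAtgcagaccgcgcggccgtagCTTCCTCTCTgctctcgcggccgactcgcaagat
The longest pyrimidine run within 10 bases of the start was 11 bases for RPL22 and 10 for RPL22L1, against a median of 10 in 77 other ribosomal protein genes and 4 in 35116 RefSeq promoters. TATAAA, searched on both strands of the 300-base promoter window, was found once for RPL22L1, beginning 30 bases before the start, and not for RPL22. It occurs in 11.5% of all promoters and in 5 of the 77 other ribosomal ones. The matches describe sequence only.

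RNA was measured as TPM, which divides reads by transcript length and by the library's total, so that the levels of RPL22 and RPL22L1 can be compared and added. TPM total 999999 to 1000000 in every library and keep no depth, so the depth is unknown and no counting interval can be given. TARDBP, which encodes TDP-43, had 64.4 ± 2.91 TPM in siTDP-43 and 255.8 ± 0.433 TPM in siControl libraries (SD, n = 3 each), and 122.6 ± 0.332 TPM in N352S and 200.5 ± 6.97 TPM in wild-type libraries (n = 2 each). All 7 noradrenergic markers fixed for the line reached a mean of 1 TPM in siTDP-43, siControl and N352S cells and 6 of 7 did in wild-type cells, with summed levels of 2999 to 3375 TPM over the 10 libraries. Of 4 Schwann cell markers, 2 averaged 1 TPM or more in each group and SOX10 stayed under 1 TPM in every library. Their summed level was 3.92 to 4.56 TPM in siTDP-43, 5.16 to 6.77 in siControl, 6.65 to 7.48 in N352S and 9.03 to 9.59 in wild-type libraries. Of 4 leukocyte markers, PTPRC, CD3E and LYZ stayed under 1 TPM in every library. CD68 averaged 1 TPM or more in siTDP-43 and siControl cells and stayed under 1 TPM in N352S and wild-type libraries, and the summed level of the 4 was 0.16 to 2.73 TPM. The summed mesenchymal markers (PRRX1, COL1A1, COL1A2, FN1 and VIM) were at 437 to 448 TPM in siTDP-43, 493 to 526 in siControl, 705 to 743 in N352S and 396 to 408 in wild-type libraries, and the part of these marker lists in the results was not tested. PRRX1 was under 1 TPM in all 10 libraries and COL1A2 in the 6 siRNA libraries.

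The pair exchanged places in N352S cells. RPL22L1, the minor form everywhere else, was the more abundant of the pair there, while RPL22 was at its lowest. RPL22 and RPL22L1 were selected on their TPM, their sum and their ratio in both comparisons, so these are given as a description with no p-value. RPL22 had 106 and 119 TPM in the N352S libraries, against 265 and 291 TPM in the wild-type libraries. The groups do not overlap, and RPL22 in N352S cells was at 40.5% of its wild-type mean (113 ± 9.21 and 278 ± 18.7 TPM; SD, n = 2 each). RPL22L1 had 212 and 225 TPM in the N352S libraries, against 33.2 and 35.8 TPM in the wild-type libraries. Its groups do not overlap either, and the N352S mean was 6.34 times the wild-type mean (219 ± 9.19 and 34.5 ± 1.82 TPM). On the log2(TPM + 1) scale of the fit across all genes, the N352S minus wild-type difference was -1.30 ± 0.07 (SE) for RPL22 and 2.63 ± 0.12 for RPL22L1. RPL22L1 had the 18th highest difference of 17118 tested genes and RPL22 the 161st lowest. In this comparison the libraries of the groups do not overlap, with N352S higher, in 25.4% of tested genes, and with N352S lower in 34.7%. Because these are RNA levels of bulk cultures, fewer cells carrying a transcript and less of it per cell cannot be told apart.

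In the knockdown the RPL22L1 level was higher with little difference in RPL22. RPL22L1 had 91.7, 99.01 and 101.5 TPM in the siTDP-43 libraries, against 58.3, 57.2 and 75.5 TPM in the siControl libraries. The groups do not overlap, and siControl replicate 3 stood closest to the knockdown. The siTDP-43 mean was 1.53 times the siControl mean (97.4 ± 5.09 and 63.7 ± 10.2 TPM; SD, n = 3 each), a difference of 0.62 ± 0.10 (SE) on the log2 scale, or 0.74 without siControl replicate 3. It had the 291st highest difference of 17118 tested genes. Mitochondrially encoded genes took 15.5 to 16.2% of TPM in siTDP-43 libraries, 14.3% and 13.7% in siControl replicates 1 and 2, and less in siControl replicate 3 than in any other library. With mitochondrially encoded genes left out of the TPM, the log2 difference was 0.66 for RPL22L1 and -0.04 for RPL22, and that of their ratio was 0.71, as with them. RPL22 had 227, 251 and 249 TPM in the siTDP-43 libraries, against 253, 263 and 254 TPM in the siControl libraries. The groups come within 2 TPM of each other and do not overlap, with means of 242 ± 13.2 and 257 ± 5.83 TPM. The log2 difference of RPL22 was -0.08 ± 0.06, equal to the median of all tested genes (-0.08). It was 0.002 with median-of-ratios scaling and 0.009 with quantile normalization, so its direction depends on the scaling. The libraries of the groups do not overlap, with siTDP-43 higher, in 11.9% of tested genes, and with siTDP-43 lower in 31.7%.

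**Figure D1:**
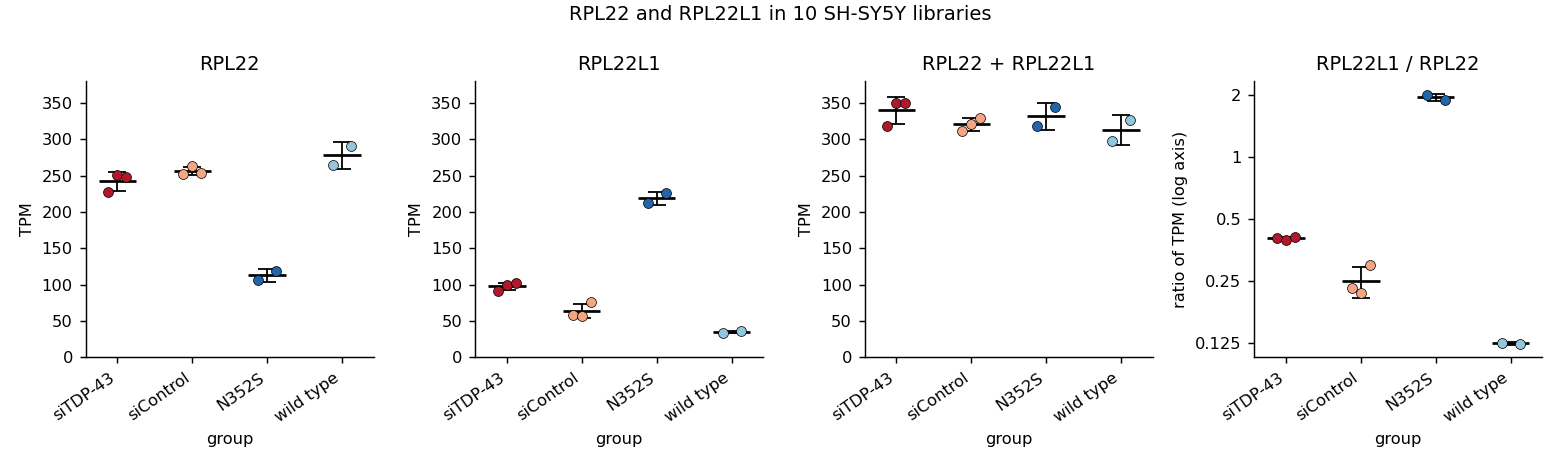
TPM of RPL22, of RPL22L1 and of their sum, and the ratio of RPL22L1 to RPL22 (log axis), in each library (points), with group means (horizontal bars) and SDs (error bars), for 3 siTDP-43, 3 siControl, 2 N352S and 2 wild-type libraries. The sum lies between 298 and 350.1 TPM in all 10 libraries, while the ratio runs over the range 0.123 to 2.00.

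The summed level of the pair differed little between the 4 groups. It was 340 ± 18.1 TPM in siTDP-43 and 320.2 ± 9.15 TPM in siControl libraries, and 331 ± 18.4 TPM in N352S and 312 ± 20.5 TPM in wild-type libraries. In both comparisons the means differed by a factor of 1.06 and the libraries of the groups overlapped. In the N352S comparison RPL22 was 165 TPM lower and RPL22L1 184 TPM higher than in wild type, which leaves a sum 19.0 TPM higher. In the knockdown RPL22 was 14.3 TPM lower and RPL22L1 33.7 TPM higher than in siControl, which leaves a sum 19.4 TPM higher. Over the 10 libraries the highest sum was 1.18 times the lowest, against 2.74 times for RPL22 and 6.78 times for RPL22L1. The same figure for 78 other ribosomal protein genes had a median of 1.23 (1.10 to 2.00), and 19 of them varied less than the sum. The log2 difference of the sum in the knockdown was 0.08 with the TPM as deposited, 0.17 with median-of-ratios scaling and 0.18 with quantile normalization.

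**Figure D2:**
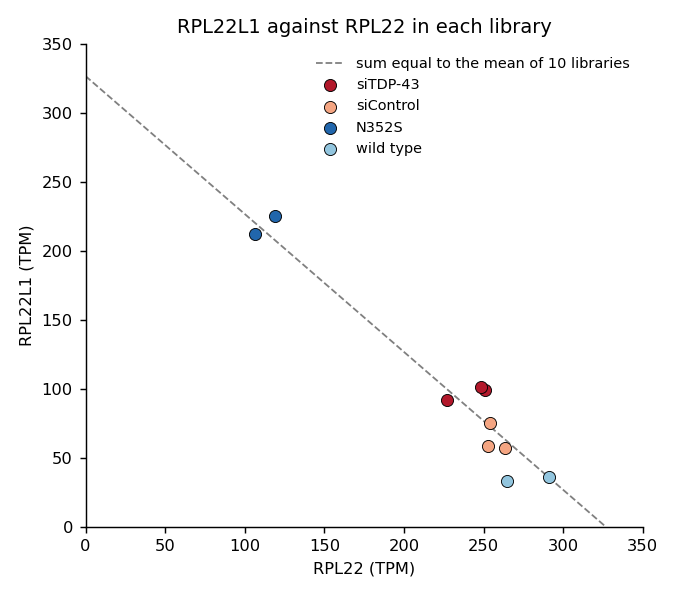
TPM of RPL22L1 (vertical axis) against TPM of RPL22 (horizontal axis) in each of the 10 libraries, coloured by group. The dashed line joins all pairs of levels that add up to the mean sum of 327 TPM. The 2 N352S libraries lie near the line above its midpoint, and the other 8 near the line below its midpoint.

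The ratio of RPL22L1 to RPL22 does not depend on how a library is scaled by a common factor. It was 2.00 and 1.89 in the N352S libraries, against 0.126 and 0.123 in the wild-type libraries. The N352S mean was 15.7 times the wild-type mean (1.95 ± 0.0776 and 0.124 ± 0.00177; SD, n = 2 each). In the siTDP-43 libraries the ratio was 0.404, 0.394 and 0.408, against 0.231, 0.217 and 0.297 in the siControl libraries. The siTDP-43 mean was 1.62 times the siControl mean (0.402 ± 0.00709 and 0.249 ± 0.0428; n = 3 each). As a share of the pair, RPL22L1 made up 28.7% in siTDP-43, 19.8% in siControl, 66.0% in N352S and 11.1% in wild-type libraries. RPL22L1 and the ratio had the same order of groups, wild type lowest, then siControl, siTDP-43 and N352S, and no neighbouring groups in that order overlap. For pairs of groups that cross the siRNA and edited cells, the share of all tested genes without overlap was not computed. RPL22 had the reverse order, and the means of siTDP-43 and siControl, and those of siControl and wild type, differ by less than the sum of their SDs. Wild-type and siControl cells, the 2 sets of controls, thus had different ratios, 0.124 and 0.249, and experiment, transfection and edited line cannot be told apart there.

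Among ribosomal protein genes the pair stood at the low end of expression. The other 78 had means of 236 to 4712 TPM over the 10 libraries, with a median of 1551 and RPL21 the lowest. RPL22 averaged 228 TPM and RPL22L1 98.99 TPM, below all 78. Of the 78, 1 was below RPL22 in siTDP-43 cells and 1 in siControl cells, and 0 were below it in N352S cells and 2 in wild-type cells.

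The other ribosomal protein genes spanned a far narrower range of differences than the pair in N352S cells. Genes were called at a limma adjusted p under 0.05 over all 17118 tested genes (Benjamini-Hochberg), which called 20.2% of genes in N352S cells (8.28% higher, 11.9% lower) and 26.0% in the knockdown (6.19% higher, 19.8% lower). In N352S cells 5 of these 78 genes rose and 0 fell (16 and 0 at an unadjusted limma p under 0.05), with a median log2 difference of 0.06 and a highest value of 0.40 (RPS7). RPS7 of the small subunit had 2676 TPM in N352S and 2028 TPM in wild-type cells (limma adjusted p = 0.0027), and RPL17 of the large subunit had 1695 and 1457 TPM (adjusted p = 0.0055). RPSA, RPLP0 and, named after its value was seen, RPL18 completed the 5, with log2 differences of 0.20, 0.15 and 0.15. The count of 5 became 3 with no filter on low TPM, 2 in a fit of the compared groups alone, 3 and 2 without N352S replicates 81 and 82, and 2 without wild-type replicate 79. Quantile normalization called 3 lower. RPL22 thus lay below all 78 and RPL22L1 above all 78. In the knockdown 33 of 78 rose and 0 fell (47 and 0 at an unadjusted limma p under 0.05), with a median of 0.12, 20 of 46 in the large subunit and 13 of 32 in the small. RPS12 had 1290 TPM in siTDP-43 and 1030 TPM in siControl cells (log2 0.32, limma adjusted p = 8.8e-04), and RPL12 had 1622 and 1399 TPM (log2 0.21, adjusted p = 0.0024). RPLP1 rose by 0.29 on the log2 scale. RPL22L1 was above all 78 here too, and 1 of 78, RPS26, was below RPL22. The count of 33 became 12 with no filter on low TPM, 13 with quantile normalization, which also called 1 lower, and 52 with median-of-ratios scaling. It was 18 without siTDP-43 replicate 2 and 17 without siTDP-43 replicate 3.

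**Figure D3:**
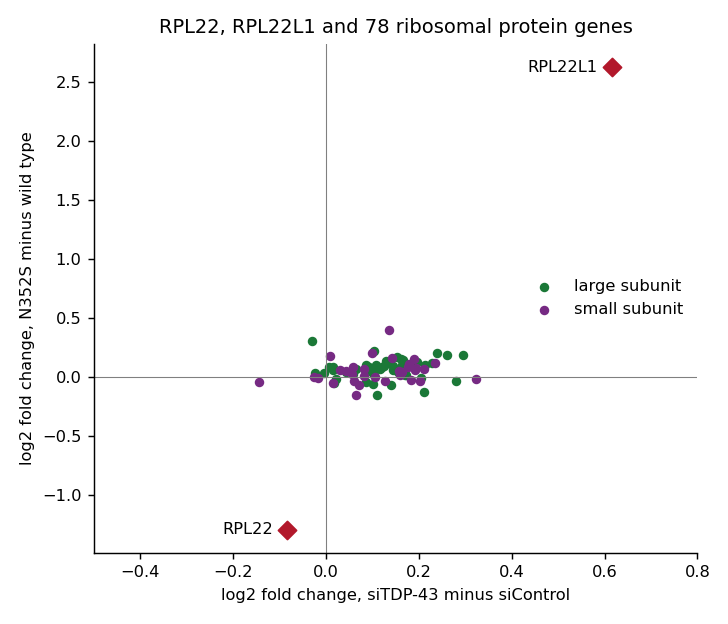
Log2 fold change in N352S minus wild type (vertical axis) against log2 fold change in siTDP-43 minus siControl (horizontal axis) for RPL22 and RPL22L1 (red diamonds) and 78 other ribosomal protein genes of the large (green) and small (purple) subunit. The 78 reach at most 0.40 on the vertical axis and all lie above RPL22, at -1.30, and below RPL22L1, at 2.63.

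Ribosomal proteins with a paralogue of their own offer a comparison for the ratio, though the likeness of these paralogues to their parents was not measured here. Of 7 such paralogues fixed beside RPL22L1, RPL3L and RPL10L reached at most 0.43 and 0.08 TPM and were not tested. In N352S against wild-type cells, the ratio of paralogue to parent had folds of 0.768 (RPL7L1), 1.04 (RPL26L1), 1.22 (RPL36AL), 1.06 (RPL39L) and 1.22 (RPS27L), against 15.7 for RPL22L1. In siTDP-43 against siControl cells the folds were 0.754 to 0.97 for these 5, against 1.62 for RPL22L1. RPL7L1, which takes part in ribosome assembly, fell to 75.5 TPM in N352S cells, against 97.0 TPM in wild-type cells (log2 -0.36, limma adjusted p = 9.4e-04). It also fell to 77.6 TPM in siTDP-43 cells, against 94.8 TPM in siControl cells (log2 -0.28, adjusted p = 9.6e-04). RPL39L rose to 60.6 TPM in N352S cells, against 50.2 TPM in wild-type cells (log2 0.27, adjusted p = 0.012), which 3 of 20 alternatives did not call. RPS27L, also a p53 target, had 98.9 and 78.8 TPM there and narrowly missed the threshold (adjusted p = 0.05), but passed it in 9 of 20 alternatives. RPL26L1 and RPL36AL were called in neither comparison.

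RPL22 lies 4.8 Mb from TARDBP on the side of the chromosome end, in a part of chromosome 1 whose genes were already seen to be lower in N352S cells in earlier results of these data. Of the 50 tested protein-coding genes nearest to it, 25 on each side over 7.6 Mb, 45 fell in N352S cells and 0 rose (48 and 0 at an unadjusted limma p under 0.05), with a median log2 difference of -0.94. Among all tested protein-coding genes, 14.1% fell and 9.8% rose. Its own difference of -1.30 was lower than that of 48 of the 50, the exceptions being MEGF6 and MMEL1 (named after their values were seen). Of the 101 other protein-coding genes between the end of the chromosome and TARDBP, 6 had a lower log2 difference than RPL22. The log2(TPM + 1) scale understates the folds of low genes, which favours RPL22 in these ranks. By the ratio of mean TPM, the neighbours MORN1, FAM213B, SLC25A33, TMEM201 and NOL9 (also named after their values were seen) lay below RPL22 too. ICMT, the methyltransferase that finishes prenylated proteins, had 22.1 and 23.3 TPM in N352S libraries, against 50.6 and 52.8 TPM in wild-type libraries (log2 -1.16, limma adjusted p = 2.4e-06). RNF207 fell to 4.79 TPM in N352S cells, against 9.31 TPM in wild type (log2 -0.83, adjusted p = 1.9e-04). CHD5, a chromatin remodeller, fell to 2.33 TPM in N352S cells, against 4.37 TPM in wild type (log2 -0.69, adjusted p = 0.012), and was not called in 3 of 19 alternatives, with a pseudocount of 0.1, without N352S replicate 82 and without wild-type replicate 79. KCNAB2, a potassium channel subunit, had 5.29 and 8.63 TPM (log2 -0.64, adjusted p = 0.049), and 12 of 20 alternatives did not call it. No other ribosomal protein gene of the list lies in this region, the next on the chromosome being RPL11 at 23691742 to 23696835, with a log2 difference of 0.06 in N352S cells.

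In the knockdown the same 50 neighbours had a median log2 difference of -0.07, with 13 lower and 1, NPHP4, higher. The background among protein-coding genes was 23.9% lower and 7.17% higher, and the median of all of them was -0.08. With median-of-ratios scaling 4 were lower and 2 higher, with quantile normalization 5 and 2, and array weights also called 2 higher. With mitochondrially encoded genes left out or no filter on low TPM 8 were lower, and so were 7 without siTDP-43 replicate 1 or siTDP-43 replicate 2 and 8 without siControl replicate 2 or siControl replicate 3.

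The neighbours of RPL22L1 did not share its difference in either comparison. Of the 50 protein-coding genes nearest to it, over 24.4 Mb of chromosome 3, 7 rose and 5 fell in N352S cells, with a median log2 difference of -0.06, where 9.8% of all tested protein-coding genes rose and 14.1% fell. All 50 had a lower value than RPL22L1 (-3.27 to 1.52, BCHE and SPTSSB at the ends). In the knockdown 1, GOLIM4, rose and 17 fell, with a median of -0.15, where 7.17% of protein-coding genes rose and 23.9% fell, and all 50 were again below RPL22L1. The 1 higher became 0 with no filter, in a fit of the compared groups alone and without siTDP-43 replicate 1 or 3 or siControl replicate 1 or 2, and 2 without siTDP-43 replicate 2. EIF5A2, the next tested coding gene and a second form of a translation factor, had 5.97 and 6.44 TPM in N352S libraries, against 7.50 and 5.70 TPM in wild-type libraries. The groups overlap (adjusted p = 0.77). SKIL and SLC7A14 on the other side were not called in N352S cells (adjusted p = 0.26 and 0.62) or in the knockdown (0.74 and 0.54). TNIK, a kinase gene beyond EIF5A2, fell to 4.66 TPM in siTDP-43 cells, against 7.83 TPM in siControl cells (log2 -0.65, adjusted p = 9.6e-04), and was not called in N352S cells (adjusted p = 0.64). The 7 higher neighbours in N352S cells became 2 in a fit of the compared groups alone and 4 with no filter. Leaving out N352S replicate 81, N352S replicate 82, wild-type replicate 79 or wild-type replicate 80 gave 4, 3, 2 and 1. The 5 lower became 2, 2 and 3 in the fit of the compared groups alone, without N352S replicate 82 and without wild-type replicate 80.

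**Figure D4:**
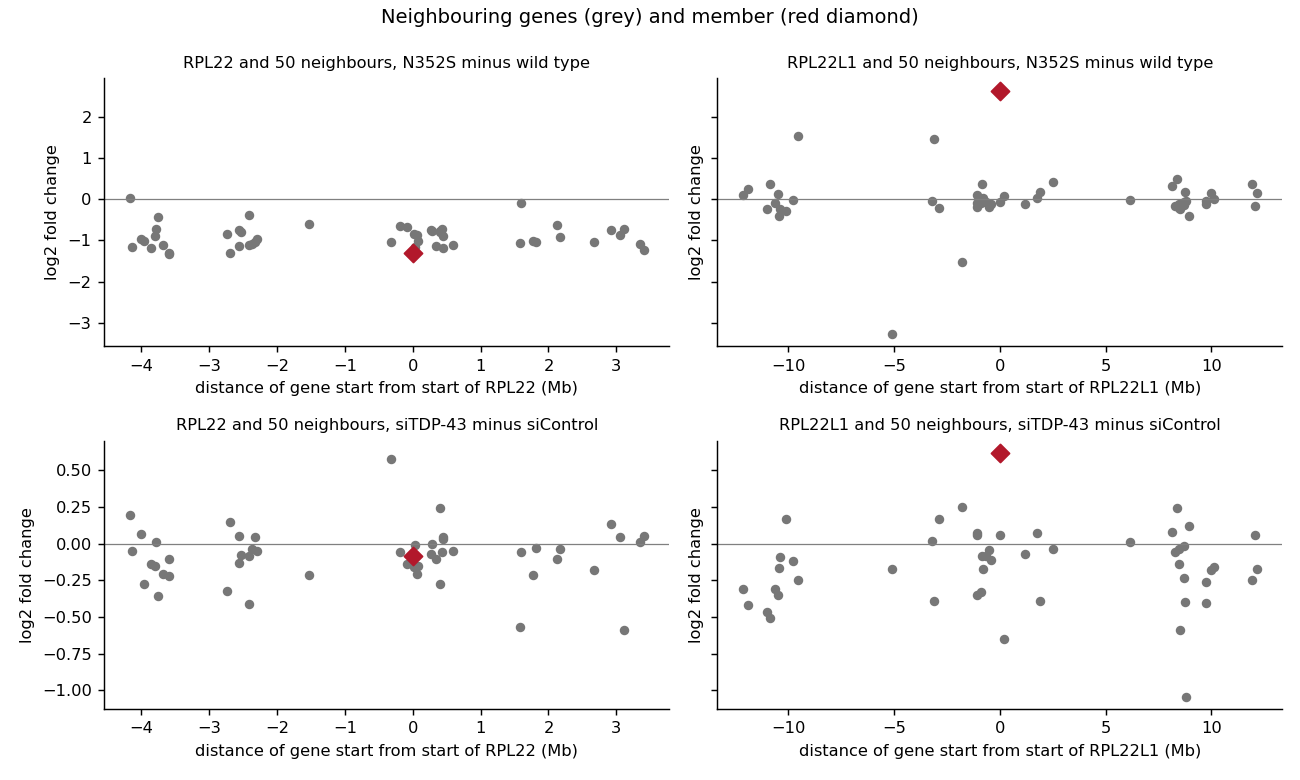
Log2 fold change of RPL22 (left) and RPL22L1 (right) as red diamonds and of their 50 nearest tested protein-coding genes (grey points) against distance in Mb from the start of the member, with the N352S comparison in the top row and the knockdown in the bottom row. In N352S cells the RPL22 neighbours have a median of -0.94 and the RPL22L1 neighbours a median of -0.06.

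Genes on a list of large-subunit assembly factors were lower more often than higher in N352S cells, while in the knockdown the direction depended on the scaling. The protein of either member is built into that subunit. The list also holds more general nucleolar proteins, among them FBL, NOP56, NOP58, DKC1, NCL and NPM1. Its counts are therefore not specific to the large subunit. Of 39 tested, 22 fell and 0 rose in N352S cells (26 and 0 at an unadjusted limma p under 0.05), with a median log2 difference of -0.24 against -0.03 over all tested genes, of which 11.9% fell and 8.28% rose. NOC2L, which itself lies in the end part of chromosome 1, fell most, to 48.4 TPM in N352S cells, against 112 TPM in wild-type cells (log2 -1.20, limma adjusted p = 6.5e-07). MAK16 fell to 22.8 TPM, against 31.8 TPM (log2 -0.46, adjusted p = 5.9e-04), NIP7 to 48.8 TPM, against 66.5 TPM (log2 -0.44), and WDR12 to 108 TPM, against 131 TPM (log2 -0.28). In the knockdown 13 fell and 2 rose, with a median of -0.10 against -0.08 over all tested genes, of which 19.8% fell and 6.19% rose. With median-of-ratios scaling 3 fell and 5 rose, and with quantile normalization 4 fell and 5 rose. MAK16 fell to 26.6 TPM in siTDP-43 cells, against 34.9 TPM in siControl cells (log2 -0.38, adjusted p = 5.6e-04), and LSG1 and the nucleolar protein NCL fell by 0.24 and 0.26 on the log2 scale. The RNA methyltransferase FBL rose to 317 TPM in siTDP-43 cells, against 284 TPM in siControl cells (log2 0.16, adjusted p = 0.01), and NLE1, named after its value was seen, rose by 0.25. The 2 that rose became 1 without siTDP-43 replicate 1 or 3 or siControl replicate 1. The 13 became 8 in a fit of the compared groups alone, and 5, 7 and 6 without siTDP-43 replicates 1, 2 and 3. The 22 became 14 in a fit of the compared groups alone, 13 without N352S replicate 82 and 11 without wild-type replicate 79.

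Of 7 genes reported elsewhere to be bound or regulated by RPL22 or RPL22L1, 6 were tested and RUNX1 reached at most 0.15 TPM. In N352S cells 3 fell and 0 rose, where 11.9% of all tested genes fell and 8.28% rose. The counts of the list in N352S cells were the same at an unadjusted limma p under 0.05. LIN28B, an RNA-binding protein linked to Rpl22 in mouse leukaemia, had 8.47 and 8.36 TPM in N352S libraries, against 13.1 and 13.7 TPM in wild-type libraries (log2 -0.61, limma adjusted p = 6.1e-04). UBAP2L, a stress granule protein whose splicing has been tied to the pair, had 163.6 and 163.8 TPM, against 200.4 and 198 TPM (log2 -0.28, adjusted p = 8.3e-04). MDM4 fell to 24.9 TPM in N352S cells, against 30.4 TPM in wild-type cells (log2 -0.28, adjusted p = 0.039), which 9 of 20 alternatives did not call. In the knockdown 1 rose and 1 fell (2 and 1 at an unadjusted limma p under 0.05), where 6.19% of all tested genes rose and 19.8% fell. LIN28B rose there, with 36.1, 36.6 and 36.7 TPM in siTDP-43 libraries, against 24.8, 27.4 and 29.4 TPM in siControl libraries (log2 0.41, limma adjusted p = 0.0015). SMAD1, regulated by Rpl22 in zebrafish, fell to 18.6 TPM in siTDP-43 cells, against 26.0 TPM in siControl cells (log2 -0.46, adjusted p = 3.5e-04). MDM4 and UBAP2L were not called there (adjusted p = 0.82 and 0.89), and SMAD2 and HNRNPA1 in neither comparison. SMAD2 had a log2 difference of 0.14 in the knockdown (limma adjusted p = 0.09), and 6 of 21 alternatives called it there. A table of gene totals cannot show splicing.

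A list of 28 genes of the p53 pathway, including MDM2, MDM4 and p53 targets, was examined because ribosomal proteins act on this pathway. In N352S cells 9 rose and 3 fell, with a median log2 difference of 0.14, where 8.28% of all tested genes rose and 11.9% fell. The growth factor GDF15 had 9.24 and 9.63 TPM in N352S libraries, against 3.82 and 3.85 TPM in wild-type libraries (log2 1.11, limma adjusted p = 0.0011). The DNA repair gene DDB2 rose to 62.6 TPM, against 43.02 TPM (log2 0.53, adjusted p = 0.0011), and the growth inhibitor BTG2 to 15.2 TPM, against 10.8 TPM (log2 0.45). SESN2 (log2 -0.71) and MDM4 were among the 3 that fell. In the knockdown 4 rose and 11 fell, with a median of -0.02, where 6.19% of all tested genes rose and 19.8% fell. The cell cycle inhibitor CDKN1A rose to 59.6 TPM in siTDP-43 cells, against 33.6 TPM in siControl cells (log2 0.81, adjusted p = 7.2e-04), with GDF15, BTG2 and TRIAP1 (the last named after its value was seen) as the others that rose. DDB2 (log2 -0.54), SESN1 (-0.54) and TP53INP1 (-0.53) fell. The 4 became 8 with quantile normalization. The 9 became 5, 3, 4 and 4 without N352S replicates 81 and 82 and wild-type replicates 79 and 80. The 3 became 1 with no filter, with median-of-ratios scaling, quantile normalization or array weights, in a fit of the compared groups alone, and without N352S replicate 82 or wild-type replicate 79.

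Genes whose level across the 10 libraries was most like that of RPL22 came mostly from the same chromosome end. By Pearson correlation of log2(TPM + 1), given as a description because the libraries share groups and the N352S libraries stand apart, these were NOC2L (r = 0.992), SDF4 (0.991), MAGEA10 on the X chromosome (0.991) and LRRC47 (0.986). NOC2L starts at 944204, SDF4 at 1216908 and LRRC47 at 3778558 on chromosome 1. The most opposed were CRISPLD1 (-0.994), FBXL7 (-0.994), CXCR4 (-0.989) and RORB (-0.982), on 4 other chromosomes. For RPL22L1 the closest were the kinase GRK5 (0.974), the growth factor PDGFD (0.969), FHL3 (0.963) and the vesicle protein SYT4 (0.958), on 4 different chromosomes. SYT4 had 147 TPM in siTDP-43 and 129 TPM in siControl cells, and 323 TPM in N352S and 98.4 TPM in wild-type cells. The most opposed to RPL22L1 were GYG2 (-0.989), the calcium pump ATP2A2 (-0.986), the purine enzyme PNP (-0.984) and MMP15 (-0.98).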

How the data were processed

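The deposited gene-level TPM are the authors'. The submitters' processing notes name STAR, RSEM and the hg38 build, without versions, annotation or strand setting. Per the labels' protocols, the RNA came from Trizol lysates and went through Illumina's TruSeq RNA kit. Positions came from GENCODE release 29 (hg38), where 99.4% of the gene identifiers were found, and promoters from RefSeq (GRCh38.p14).

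The 17118 genes averaging 1 TPM or more were fitted as log2(TPM + 1) with limma 3.58.1 in R 4.3.3, with all 4 groups together and a mean-variance trend (6 residual degrees of freedom), so the 2 libraries of a genotype borrow the spread of the siRNA groups. Fold changes on this scale understate those of low genes. The fit was tested on simulated data. Coding sequences were aligned with Biopython 1.88.

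The members and the lists were chosen with earlier results of these data known. Named genes are the pair, TARDBP, the 2 coding neighbours on each side, all tested paralogues and reported targets, up to 4 called members per other list and comparison with the smallest adjusted p, and the 4 genes most like and most opposed to each member. STMN2, also on that rule, had 100.3 TPM in siTDP-43 and 750.1 TPM in siControl cells, and 406 TPM in N352S and 743 TPM in wild-type cells. Each list is described by counts and its median. Some genes on the rule are not reported here.

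Titles give siTDP-43 and siControl libraries the numbers 1 to 3. Deviations from group means correlated at 0.336, 0.137 and 0.198 between same-numbered libraries, all over 0.1, so the numbers may pair them. Differently numbered libraries were not correlated for comparison. The main fit is unpaired, and a replicate block was run as an alternative. The other alternatives were pseudocounts of 0.1 and 5, no filter or a mean of 5 TPM or more, quantile normalization, median-of-ratios scaling, leaving out mitochondrially encoded genes, a fit of the compared groups alone, robust eBayes, array weights and leaving out each library.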

Additional observations from a re-analysis of the deposited data

How the results depend on the processing

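RPL22L1 kept its sign in all 12 alternatives of the knockdown (log2 0.55 to 0.74 without each library) and all 9 of the N352S comparison (2.58 to 2.68), where a pseudocount of 5 gave 2.50. RPL22 in N352S cells stayed between -1.38 and -1.21 when each library was left out. In the knockdown RPL22 changed sign with median-of-ratios scaling (0.002) and with quantile normalization (0.009), settings that brought the median of all tested genes from -0.08 to near 0, and it was -0.11 to -0.04 when each library was left out. The log2 ratio of RPL22L1 to RPL22 was 0.71 in the knockdown (0.62 to 0.84 when each library was left out) and 3.97 in N352S cells (3.93 to 4.01), where a pseudocount of 5 gave 3.77 and quantile normalization 3.86. The log2 difference of the sum was 0.06 to 0.13 in the knockdown when each library was left out, 0.17 with median-of-ratios scaling and 0.18 with quantile normalization, and 0.02 to 0.15 in N352S cells.

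The knockdown gave 1059 higher and 3389 lower genes, against 1939 and 2077 with median-of-ratios scaling and 1932 and 2015 with quantile normalization, so the share of lower calls depends on the scaling. Leaving out each library gave 664 to 943 higher and 2504 to 3205 lower. N352S cells gave 1417 higher and 2033 lower, against 901 and 990 in a fit of the compared groups alone, and 815 to 1010 and 1009 to 1622 without each library. The replicate block gave 1040 higher and 3253 lower genes in the knockdown, left the log2 differences of the pair at -0.08 and 0.62, and moved no count of calls reported here by over 1.5 times. List counts that moved by more are given beside each list. The paralogues and the reported targets are excepted, as only calls of single genes, not list counts, were followed through the alternatives there. The depth behind the TPM is unknown, and groups of 2 and 3 libraries limit the precision.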

Other observations

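Other values on the pair that belong to no comparison were few. Across the 8 transcripts of the RPL22P copies, 85 of 2386 distinct 31-base words also occur in RPL22 transcripts and 56 in RPL22L1 transcripts, and the summed TPM of these rows reached at most 1.0 in a library. The GC content of the 300-base promoter window was 61.3% for RPL22 and 61.7% for RPL22L1.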
